A study of Mus musculus with 9 samples.

Results

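Kidneys of mice with hyperuricemic nephropathy that received pectolinarigenin were compared with kidneys of healthy mice, to describe what stays different from healthy kidney under treatment. The genes were those whose mean FPKM (fragments per kilobase of gene, scaled to the library total) over the 3 treated and 3 healthy libraries was at least 0.5, which holds for 15080 of the 55385 genes in the table. RNA-seq had been run on 9 kidneys of mice, C57BL/6 in the labels and male, young adult C57BL/6J in the study, with 1 library for each mouse. The healthy mice (Control, replicates 2, 4 and 5) have the disease state control and were untreated, although the titles of their samples read HN mice. The diseased, untreated mice (HN, replicates 4, 8 and 12) had been fed adenine and potassium oxonate every other day, which raises serum urate and injures the tubules. The treated mice (PEC, replicates 1, 2 and 3) had the same diet and received pectolinarigenin, a plant flavonoid, by mouth on each day from the start of the induction, at the lower of the doses in the study, a dose that the labels do not state. Total counts on genes were 75320528, 74965874 and 78459183 in the Control libraries and 74397038, 65583215 and 57714111 in the PEC libraries. The 3 HN libraries had 74315544, 81069646 and 74212324 counts; they place the levels of PEC kidneys and, being in the same fit, also enter the dispersions behind each test.

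Urate is filtered in the glomerulus, and most of it is taken back by transporters of the proximal tubule, a segment that lives on fatty acid oxidation and carries out much of the body's gluconeogenesis. Adenine is turned into poorly soluble products that form crystals in tubules, and potassium oxonate blocks uricase, the enzyme by which mice break urate down. Injured tubule cells are known to lose transport and oxidative genes, to express injury markers such as Havcr1 and Lcn2, to divide, and to release chemokines that draw macrophages, while fibroblasts lay down matrix.

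Libraries stood apart in ways that bear on the results. Principal components were taken from log2 FPKM with a pseudocount of 1. On the first component the PEC libraries lay between the other groups (12.9, 11.2 and 23.95, against -56.9, -54.5 and -64.1 in Control). On the second component the PEC libraries lay away from both (46.3, 42.7 and 47.6, against -11.5, -13.0 and -11.1 in Control). Loci of ribosomal RNA took 0.304%, 1.73% and 0.306% of the counts in PEC and at most 0.0079% in Control libraries. The locus AY036118, which carries ribosomal RNA sequence, had 1704, 10156 and 1746 FPKM in PEC against 15.7, 12.2 and 3.28 FPKM in Control libraries. Gapdh, the glycolytic enzyme used as a reference, had 49.1, 50.9 and 57.7 FPKM in PEC against 4.29, 3.50 and 5.61 FPKM in Control and 3.63, 3.99 and 3.92 FPKM in HN libraries. All 3 PEC libraries differed from both other groups in these measures. The labels name no batch, so that a difference in the handling of the PEC libraries and the treatment cannot be told apart.

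PEC replicate 3 also differed from its own group. It held 33 genes at least 10-fold above both other PEC libraries, among genes of at least 5 FPKM there, against 9 and 7 in PEC replicates 1 and 2. Adiponectin (Adipoq), the hormone of fat cells, had 61.2 FPKM in PEC replicate 3, 0.03 and 0.00 FPKM in the other PEC libraries and at most 1.58 FPKM in Control. The brown fat uncoupler Ucp1 had 50.7 FPKM there, against 0.05 and 0.00 FPKM in the other PEC libraries. Fat genes were thus high in this library and near 0 in the other 2, and the labels describe the extracted RNA in words about adipose tissue while naming kidney as the source. The claudin Cldn2, which makes the proximal tubule leaky to sodium and water, had 0.01 FPKM in PEC replicate 3 against 106 and 120.4 FPKM in PEC replicates 1 and 2 and 161 to 171 FPKM in Control. Where a named result rests on this library, its value without it is given.

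A gene was called higher or lower in PEC than in Control where the quasi-likelihood test of edgeR gave an adjusted p (Benjamini-Hochberg, all 15080 genes) of 0.05 or less and the fold change reached 1.5. By this rule 3210 genes (21.3%) were higher and 2990 (19.8%) were lower, so that 51.8% of the calls were higher. The same rule for HN against Control called 2641 genes (17.5%) higher and 2534 (16.8%) lower. Both comparisons share the Control libraries, so that their values are set side by side and their likeness is no result. Over all 15080 genes the log2 difference had a median of 0.0167 in PEC and -0.0028 in HN against Control. Changes of at least 4-fold were seen for 884 of the higher and 261 of the lower genes. For 9851 genes the FPKM of the groups did not overlap, 6624 of them with all PEC libraries above and 3227 with all below, together 65.3% of the genes, against 41.1% called. Scaling by library totals alone called 4909 genes higher and 1704 lower (74.2% higher) and moved the median of all genes to 0.31. On FPKM as deposited, limma called 3589 higher and 1486 lower (70.7% higher) with a pseudocount of 1, where the median was 0.19, and 4531 higher and 1885 lower (70.6% higher) with a pseudocount of 0.1, where the median was 0.25. Falls are therefore stated relative to the bulk of the genes. A gene below 0.5 FPKM in every Control library could be tested only where PEC was high, so that its being called higher follows in part from the FPKM limit. Among the genes named below this holds for Sox9, Mmp7, Ltbp2, Tnf, Lif, Cxcl2, Ripk3, Casp1, Ugt1a1, Ugt1a9, Scgb1a1, Il1f6, Cxcl17, Serpina10 and others given in their paragraphs. In the same way, a gene below 0.5 FPKM in every PEC library could be tested only where Control was high, as for Mir22 and Apaf1.

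**Figure D1:**
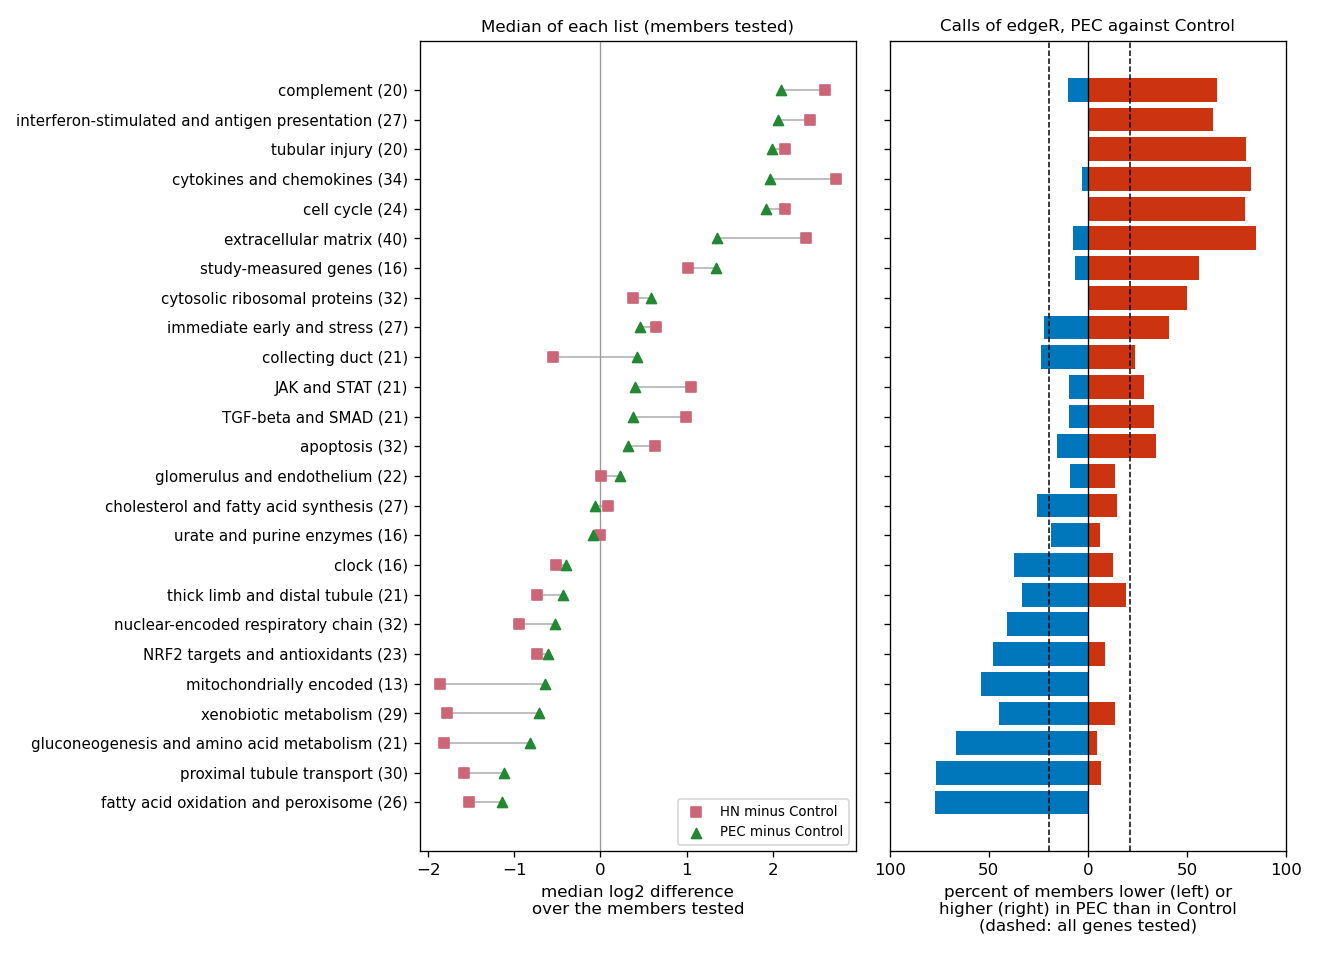
The median log2 difference of each gene list in PEC (triangles) and HN (squares) against Control (left) and the percent of members called higher or lower in PEC than in Control, with the 21.3% and 19.8% of all tested genes as dashed lines. Library totals alone turn the PEC medians of the urate and cholesterol lists to 0.21 and 0.24.

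Most markers of tubular injury stayed far above the healthy level. Of 20 such genes, 16 were higher and 0 lower in PEC (21.3% and 19.8% of all genes), with a median log2 difference of 1.99, beside 18 higher and a median of 2.15 in HN. Havcr1 (ENSMUSG00000040405, chr11:46735080-46779578, GRCm38), which encodes the injury receptor KIM-1 that lets tubule cells take up dead cells, had 1.54, 0.84 and 0.97 FPKM in Control replicates 2, 4 and 5 and 182, 237 and 129 FPKM in PEC replicates 1, 2 and 3. Its log2 difference was 7.10 (SE 0.33, adjusted p = 3.58e-06). All PEC libraries lay above all Control libraries by a wide margin, and the HN libraries, at 275 to 334 FPKM, lay above both. Lcn2, the iron-binding lipocalin NGAL, had 1.37, 2.01 and 0.66 FPKM in Control and 101, 66.9 and 209.5 FPKM in PEC libraries, with a log2 difference of 6.29 (SE 0.56, adjusted p = 3.71e-05). Its PEC levels spread around those of HN (136 to 176 FPKM). Spp1, the secreted phosphoprotein osteopontin that binds crystals, went from 388, 428 and 355 FPKM to 7834, 7994 and 6468 FPKM, with a log2 difference of 4.0004 (SE 0.16, adjusted p = 1.90e-06). Clu, a chaperone outside cells, had 74.3, 72.9 and 50.7 FPKM in Control and 776, 751 and 590.5 FPKM in PEC libraries, while HN libraries had 614 to 690.2 FPKM. The repair factor Sox9 was higher with a log2 difference of 4.07 and the adhesion molecule Vcam1 with 3.87. The 4 members that were not called were Tnfrsf12a, Gdf15, Plin2 and S100a6, at log2 differences of -0.08, 0.36, 0.43 and 0.82.

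Most transport genes of the proximal tubule stayed below the healthy level. Of 30 genes, 23 were lower and 2 higher in PEC (19.8% and 21.3% of all genes), with a median log2 difference of -1.12. In HN, 26 were lower and 2 higher, with a median of -1.59. With scaling by library totals, 18 were lower in PEC. Bulk RNA does not tell fewer cells of a type from less RNA per cell. Slc22a12, the urate exchanger URAT1 of the brush border, had 673, 515 and 575 FPKM in Control and 193, 216 and 149 FPKM in PEC libraries (log2 difference -1.91, SE 0.19, adjusted p = 6.62e-05). Its PEC levels were all below the lowest Control level, and the HN levels of 118 to 169.5 FPKM overlapped with them. By the same test Slc22a12 was called higher in PEC than in HN, with a log2 difference of 0.65. The phosphate transporter Slc34a1 had 668, 717 and 739.6 FPKM in Control and 437, 522 and 323 FPKM in PEC libraries (log2 difference -0.98, SE 0.16, adjusted p = 0.00102). Here the PEC libraries lay between Control and HN, which had 209 to 216 FPKM. Slco1a1, an organic anion carrier, had 65.4, 42.2 and 112 FPKM in Control and 2.50, 8.46 and 0.98 FPKM in PEC libraries (log2 difference -4.47, SE 0.87, adjusted p = 0.00234). The organic anion transporter Slc22a7 fell by 3.15 on the log2 scale. The endocytic receptors Lrp2 and Cubn, which take up filtered protein, fell by 1.14 and 0.70. Both higher members were Slc13a1, a sulfate transporter (log2 difference 0.89), and Abcc4, an exporter of urate and organic anions (0.68, or 0.58 and not called without Control replicate 5). Slc2a9, the urate carrier of the basolateral side, did not pass, at a log2 difference of 0.05.

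Of 18 genes of urate and purine metabolism, 16 were tested, since Uox and Allc were below the FPKM limit, and 1 was higher and 3 were lower (21.3% and 19.8% of all genes), with a median of -0.09 in PEC that library totals alone turned to 0.21 and limma on FPKM to 0.13 (-0.01 in HN). Without Control replicate 5 or PEC replicate 3, 2 were higher, and with a library left out the median was -0.15 to -0.004. Xdh, the oxidase that makes urate, was not called, at a log2 difference of 0.39, nor was the salvage enzyme Hprt, at -0.23, which was called lower with length dependence removed (-0.67), where 5 of the list were lower. Nt5e, the surface enzyme that makes adenosine from AMP, had 25.2, 13.5 and 20.7 FPKM in Control and 6.81, 10.7 and 6.47 FPKM in PEC libraries (log2 difference -1.57, SE 0.26, adjusted p = 9.23e-04). Adk, which returns adenosine to AMP, fell by 1.06 on the log2 scale, but was not called with length and GC dependence removed (-0.26). Ppat, which opens purine synthesis, fell by 0.998 in PEC on the same scale and was not called in HN, at -0.26. Ampd3, an AMP deaminase, was higher by 0.74. Nt5e and Ppat in PEC kidneys were lower than in HN kidneys by the same test as well, with log2 differences of -0.88 and -0.74.

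Most genes of fatty acid oxidation and the peroxisome stayed below the healthy level. Of 26 genes, 20 were lower and 0 higher in PEC (19.8% and 21.3% of all genes), with a median log2 difference of -1.14. In HN, 24 were lower and the median was -1.53. In PEC the count of lower genes was 14 with library totals alone and 16 to 22 with a library left out. Ppara, the receptor that switches these genes on, had 13.1, 15.6 and 14.7 FPKM in Control and 1.74, 2.46 and 1.60 FPKM in PEC libraries (log2 difference -3.16, SE 0.27, adjusted p = 3.34e-05). With 5.95 to 11.1 FPKM in HN, its lowest levels were those of the treated kidneys, which differed from HN by -1.85 on the log2 scale. Ehhadh, a bifunctional enzyme of the peroxisome, had 548, 316 and 271 FPKM in Control and 79.9, 129 and 73.0 FPKM in PEC libraries (log2 difference -2.26, SE 0.35, adjusted p = 6.50e-04). Acadm, the medium-chain dehydrogenase, fell by 2.10. Control replicate 2 stood apart for Cyp4a14, a fatty acid hydroxylase and target of this receptor, with 485 FPKM there against 72.6 and 31.8 FPKM in Control replicates 4 and 5 and 19.5, 44.4 and 76.7 FPKM in PEC libraries, and the gene was not called (log2 difference -2.30). Without Control replicate 2 the median of the list was -0.79. Etfb, a subunit of the flavoprotein that takes electrons from these dehydrogenases, had 204, 185 and 165 FPKM in Control and 236, 220.3 and 265 FPKM in PEC libraries and was not called (log2 difference 0.13, SE 0.10, adjusted p = 0.320). It had 72.9 to 86.4 FPKM in HN, so that its PEC level was beside that of Control.

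Calls of respiratory chain genes moved with the scaling. Of the 13 genes encoded in the mitochondrial genome, 7 were lower in PEC and 13 in HN (19.8% and 16.8% of all genes). The medians were -0.65 and -1.87. The count in PEC was 2 with library totals alone, 12 after removal of the dependence on gene length and 5 to 7 with a library left out, and the median was -0.37 without Control replicate 5. The share of all counts on mitochondrial genes was 13.3%, 12.9% and 16.3% in Control, 13.0%, 10.3% and 13.6% in PEC and 6.01% to 6.34% in HN libraries. mt-Nd4l, a membrane subunit of complex I whose reading frame overlaps that of mt-Nd4, fell the most, by 1.76 on the log2 scale, from 7081, 6768 and 8412 FPKM to 2993, 2208 and 2659 FPKM. mt-Co1, the catalytic subunit of complex IV, had 22666, 22844 and 25385 FPKM in Control and 24679, 19620 and 28416 FPKM in PEC libraries and was not called (log2 difference -0.22, adjusted p = 0.358), but was called lower with length dependence removed (-0.59). Of 32 respiratory chain genes encoded in the nucleus, 13 were lower and 0 higher in PEC (19.8% and 21.3% of all genes). The median was -0.53, beside 31 lower and a median of -0.95 in HN. The PEC count was 5 lower and 2 higher with library totals alone or by limma, and 1 was higher without PEC replicate 2. Cox8a, a small subunit of complex IV, fell from 729, 763 and 758 FPKM to 364, 357 and 353 FPKM (log2 difference -1.32, SE 0.07, adjusted p = 4.93e-06). It was the member with the least spread among those named, and its HN levels of 495 to 525 FPKM lay between both groups.

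Of 21 tested genes of gluconeogenesis and amino acid metabolism, 14 were lower and 1 higher in PEC (19.8% and 21.3% of all genes). Bhmt was below the FPKM limit. The median was -0.82, beside 18 lower and a median of -1.82 in HN. In PEC, 8 were lower with library totals alone, and 2 were higher without Control replicate 4. Pck1, the enzyme that commits carbon to glucose, had 1309.5, 1047 and 692 FPKM in Control and 277, 486 and 261 FPKM in PEC libraries (log2 difference -1.82, SE 0.33, adjusted p = 0.00153). Its HN levels were 109 to 191 FPKM, below those of all PEC libraries. Gatm, which starts creatine synthesis, fell by 1.96 in PEC and 1.80 in HN. Hpd, of tyrosine breakdown, was not called, at -0.45 in PEC beside -3.60 in HN.

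Of 29 genes of xenobiotic metabolism, 13 were lower (19.8% of all genes) and 4 higher, a share below the 21.3% of all genes, in PEC, with a median of -0.72, beside 21 lower, 1 higher and a median of -1.79 in HN. Without Control replicate 4 or 5 or PEC replicate 1, or with length dependence removed, 2 were higher in PEC. By limma with a pseudocount of 1 and with library totals alone 6 were higher, with medians of -0.38 and -0.44. Kap, an androgen-regulated protein of the proximal tubule and one of the most abundant mRNAs of the male mouse kidney, had 24762, 23991 and 37572 FPKM in Control and 12347, 17697 and 11552 FPKM in PEC libraries (log2 difference -1.32, SE 0.30, adjusted p = 0.00516). It had 2793 to 5206 FPKM in HN, so that the groups followed each other without overlap. Acsm3, an acyl-CoA synthetase, fell by 2.52 on the log2 scale. The higher members were Cyp24a1, which breaks down vitamin D (log2 difference 2.36), and the glutathione transferases Gsta4 (1.17), Gsta2 (0.67) and Gstm1 (0.60). Gsta4 had 14.7, 15.0 and 11.1 FPKM in Control and 33.8, 23.1 and 52.2 FPKM in PEC libraries, and 16.7 to 21.4 FPKM in HN. Gsta2 was not called without Control replicate 4 (0.67), Control replicate 5 (0.48) or PEC replicate 1 (0.56), nor was Gstm1 without Control replicate 4 (0.58), Control replicate 5 (0.53), PEC replicate 1 (0.50) or PEC replicate 3 (0.55), and with length dependence removed neither was (0.20 and 0.21). Gpx3, the plasma glutathione peroxidase made in the kidney, had 3068, 12853 and 2939 FPKM in PEC libraries against 12638, 12184 and 9756 FPKM in Control, was not called (log2 difference -1.12, adjusted p = 0.143), and was lower without PEC replicate 2 (-2.19, adjusted p = 0.00372).

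**Figure D2:**
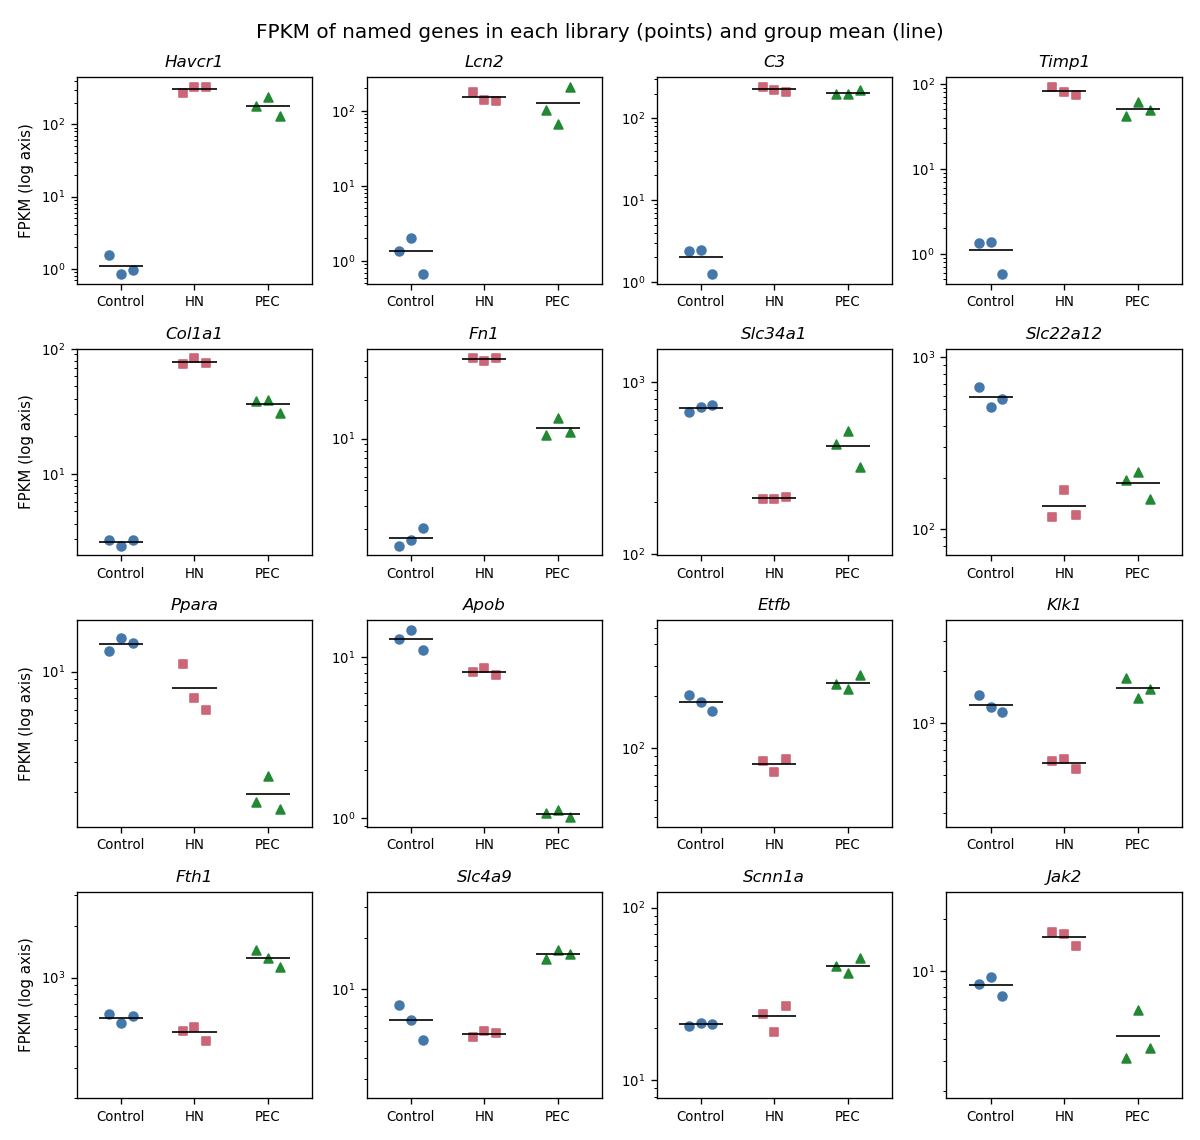
FPKM of 16 named genes in each library on a log axis, with a line at each group mean. Havcr1 lies at 0.84 to 1.54 FPKM in Control and 129 to 237 FPKM in PEC libraries, while Etfb lies at 165 to 204 FPKM in Control and 220.3 to 265 FPKM in PEC libraries.

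Of 21 genes of the thick limb and distal tubule, 7 were lower and 4 higher in PEC (19.8% and 21.3% of all genes), with a median of -0.43, beside 12 lower, 3 higher and a median of -0.74 in HN. The PEC median was -0.13 with library totals alone and -0.19 by limma with a pseudocount of 1. Umod, the most abundant urinary protein, was not called, at 845, 938 and 852 FPKM in Control and 1159.6, 1214 and 1086 FPKM in PEC libraries (log2 difference 0.14, SE 0.10, adjusted p = 0.263). Slc12a1, the salt cotransporter that loop diuretics block, fell by 1.41 and the growth factor Egf by 1.70. Among the higher members were the tight junction proteins Cldn19 (log2 difference 0.98) and Cldn16 (0.70) and the calcium channel Trpv5 (1.06). Cldn16 was not called without Control replicate 2 (0.64), Control replicate 5 (0.58) or PEC replicate 1 (0.52), nor with length dependence removed (0.22).

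In the collecting duct 5 of 21 genes were higher and 5 lower, near the 21.3% and 19.8% of all genes, with a median of 0.43, beside 0 higher, 9 lower and a median of -0.56 in HN. Scaling by library totals called 12 higher and 0 lower and limma on FPKM 10 and 0. Without PEC replicate 2, 8 were higher, without Control replicate 2 or 4 or PEC replicate 1, 3 were lower, and without PEC replicate 3 the median was 0.26. With length dependence removed 3 were higher. With length and GC dependence removed, the genes of the aldosterone-driven sodium channel were not called (Scnn1a 0.56, Scnn1b 0.46 and Scnn1g 0.40), nor was Hsd11b2 (0.30). By the test used here the 3 subunits of the channel were higher: Scnn1a from 20.5, 21.5 and 21.1 FPKM to 46.0, 41.5 and 50.9 FPKM (log2 difference 0.88, SE 0.13, adjusted p = 5.35e-04), Scnn1b by 0.83 and Scnn1g by 0.59, just past the 1.5-fold limit. Scnn1g was not called without Control replicate 2 (0.57), Control replicate 5 (0.51), PEC replicate 1 (0.58) or PEC replicate 2 (0.51). Hsd11b2, the enzyme that shields the aldosterone receptor from glucocorticoids, was higher by 0.74. Slc4a9, an anion exchanger of intercalated cells, had 8.17, 6.69 and 5.07 FPKM in Control and 15.0, 17.0 and 16.1 FPKM in PEC libraries (log2 difference 1.02, SE 0.14, adjusted p = 3.24e-04), while HN libraries had 5.28 to 5.72 FPKM. The lower members were the anion exchanger Slc4a1 (-0.83), the proton pump subunit Atp6v0a4 (-0.82), the carbonic anhydrase Car2 (-0.72) and the water channels Aqp2 (-0.93) and Aqp3 (-0.60). Aqp2 was not called without Control replicate 2 (-0.81), Control replicate 4 (-0.70), PEC replicate 1 (-0.85) or PEC replicate 2 (-0.81). Aqp3 was not called without Control replicate 2 (-0.51), Control replicate 4 (-0.51), PEC replicate 1 (-0.54) or PEC replicate 3 (-0.61).

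Of 22 tested genes of glomerulus and endothelium, 3 were higher and 2 lower, below the 21.3% and 19.8% of all genes, with a median of 0.23, and 8 were higher with library totals alone. Without Control replicate 4, 5 were higher, and without PEC replicate 3 the median was 0.15. The endothelial receptors for VEGF were the lower ones: Kdr had 8.28, 8.20 and 9.29 FPKM in Control and 2.58, 3.88 and 5.44 FPKM in PEC libraries (log2 difference -1.37, SE 0.24, adjusted p = 0.00131), and Flt1 fell by 1.20. The higher ones were Pdgfrb of pericytes (1.02) and the podocyte genes Ptpro (0.75) and Synpo (0.71). The podocyte marker Nphs1 was not called, at a log2 difference of 0.30. Ren1, the renin gene, had 36.9, 39.6 and 23.4 FPKM in Control and 88.4, 57.7 and 42.5 FPKM in PEC libraries, was not called (log2 difference 0.67, adjusted p = 0.0602), and was higher without PEC replicate 3 (0.91, adjusted p = 0.0144). It was also called higher by limma on FPKM (0.87 and 0.89 for pseudocounts of 1 and 0.1), by DESeq2 (0.68), with library totals alone (0.96) and at a limit of 1 FPKM (0.72).

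Most genes of the extracellular matrix stayed above the healthy level. Of 40 tested genes, 34 were higher and 3 lower in PEC (21.3% and 19.8% of all genes), with a median log2 difference of 1.36. In HN, 38 were higher and 2 lower, with a median of 2.38. Col1a1 (ENSMUSG00000001506, chr11:94936224-94953042, GRCm38), a chain of fibrillar collagen type I, had 2.93, 2.65 and 2.95 FPKM in Control and 38.1, 39.2 and 30.4 FPKM in PEC libraries (log2 difference 3.40, SE 0.12, adjusted p = 1.52e-06). The PEC libraries lay above all Control and below all HN libraries, which had 75.8 to 84.2 FPKM. Fn1, fibronectin, had 1.47, 1.62 and 2.01 FPKM in Control and 10.6, 14.6 and 11.2 FPKM in PEC libraries (log2 difference 2.57, SE 0.17, adjusted p = 9.59e-06), against 39.6 to 42.0 FPKM in HN. Timp1, the inhibitor of matrix proteases, had 1.35, 1.36 and 0.57 FPKM in Control and 42.2, 61.5 and 49.1 FPKM in PEC libraries (log2 difference 5.28, SE 0.31, adjusted p = 7.56e-06). Mmp7, a protease of injured tubules, had 17.2, 9.54 and 30.4 FPKM in PEC libraries and 8 counts over the 3 Control libraries together, with a fitted log2 difference of 9.002 that rests on those few counts. Acta2, the smooth muscle actin of myofibroblasts, had 15.9, 15.6 and 16.6 FPKM in Control and 49.5, 56.9 and 48.7 FPKM in PEC libraries (log2 difference 1.43, SE 0.10, adjusted p = 1.42e-05). Its HN level of 54.1 to 63.1 FPKM overlapped with that of PEC. The lower members were Timp3 (-1.01), which with 273, 226 and 265 FPKM in Control was the most abundant of the list there, Col4a3 of the glomerular basement membrane (-0.89, or -0.57 and not called with length dependence removed) and Col8a1 (-1.12). Col8a1 was not called without Control replicate 2 (-0.91) or PEC replicate 3 (-0.94), and it was higher in HN, by 1.32.

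Of 21 tested genes of TGF-beta and SMAD signaling, 7 were higher and 2 lower in PEC (21.3% and 19.8% of all genes), with a median of 0.37, beside 12 higher, 1 lower and a median of 0.997 in HN. The PEC median was 0.13 without Control replicate 4 and 0.14 without PEC replicate 2, and limma on FPKM called 0 lower. Tgfb1, the main fibrogenic ligand, had 3.21, 3.39 and 2.03 FPKM in Control and 7.06, 8.13 and 8.67 FPKM in PEC libraries (log2 difference 1.22, SE 0.16, adjusted p = 2.99e-04). All PEC libraries were above Control and below HN, at 15.7 to 16.7 FPKM. Ltbp2, a protein of elastic fibres related to those that hold latent TGF-beta, had 0.01 FPKM in each Control library and 2.99, 4.76 and 3.67 FPKM in PEC libraries (fitted log2 difference 8.65). Smad3, the transducer of the pathway, had 8.63, 7.36 and 7.20 FPKM in Control and 12.7, 14.9 and 13.1 FPKM in PEC libraries and was not called, since its log2 difference of 0.56 was under the fold limit (SE 0.10, adjusted p = 0.00127). It was called higher without Control replicate 2 (0.63), PEC replicate 1 (0.60) or PEC replicate 3 (0.60), by limma on FPKM (0.74 and 0.81 for pseudocounts of 1 and 0.1), with library totals alone (0.86) and at a limit of 1 FPKM (0.60). Ccn2, a matricellular target of the pathway, had 20.6, 28.1 and 26.3 FPKM in Control, 19.3, 21.1 and 31.5 FPKM in PEC and 71.4 to 186 FPKM in HN libraries, and was not called in PEC (log2 difference -0.32, adjusted p = 0.471). The related Ccn1 was higher, by 1.53. The lower members were the inhibitors Smad6 (-1.01) and Skil (-0.997), neither of which was called in HN, at -0.02 and 0.42. Skil was not called with length and GC dependence removed (-0.40), nor was either by limma on FPKM with a pseudocount of 1 (-0.58 and -0.57).

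Most members of the list of cytokines and chemokines stayed high. Of 34 tested genes, 28 were higher and 1 lower in PEC (21.3% and 19.8% of all genes), with a median of 1.97. In HN, 30 were higher and 1 lower, with a median of 2.73. Without PEC replicate 3, 2 were lower in PEC. Il1rn, Tnf, Ccl7, Ccl8, Ccl20, Cxcl2 and Cxcl5 were below the FPKM limit in every Control library, so that they could be tested only where PEC was high. Il6 was below the FPKM limit and was not tested. Ccl2, which draws monocytes, had 0.92, 0.34 and 0.70 FPKM in Control and 16.8, 8.58 and 11.1 FPKM in PEC libraries (log2 difference 3.94, SE 0.45, adjusted p = 1.31e-04). Tnf had 0.15, 0.15 and 0.03 FPKM in Control and 1.11, 1.09 and 1.44 FPKM in PEC libraries (log2 difference 3.25). Il1b, of the inflammasome, had 0.72, 1.08 and 0.98 FPKM in Control and 2.56, 2.78 and 5.47 FPKM in PEC libraries (log2 difference 1.70). For each of these 3 genes every PEC library lay above every Control library. Cxcl16, a membrane-bound chemokine, was the most even member, with 10.7, 12.1 and 10.7 FPKM in Control and 38.0, 39.8 and 37.6 FPKM in PEC libraries (log2 difference 1.53). The neutrophil chemokines Cxcl1 and Cxcl2 were higher by 4.40 and 5.48. Cx3cl1, fractalkine, was higher in PEC by 1.33 but had 3.56 FPKM in Control replicate 2 against 20.7 and 16.1 FPKM in Control replicates 4 and 5, and was not called without Control replicate 5 (1.52) or PEC replicate 1 (1.30), 2 (1.25) or 3 (1.45). The lower member was Ccl28, an epithelial chemokine, with 7.00, 5.45 and 11.8 FPKM in Control and 0.60, 1.11 and 0.84 FPKM in PEC libraries (log2 difference -3.52, SE 0.42, adjusted p = 1.52e-04).

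The promoters of Cxcl1 and Cxcl2 are shown because both genes are neighbours on chromosome 5, rose in PEC and carry the same letters near their start. The windows (RefSeq, GRCm38.p6, plus strand) run from 250 bases before to 50 after the start of the gene, at chr5:90890995-90891294 for Cxcl1 and chr5:90903649-90903948 for Cxcl2. Capitals mark matches to a form of the NF-kB motif, GGG and TTTCC with 2 free bases between, on either strand, and each window holds 2, from position -89 and -71 in Cxcl1 and from -97 and -78 in Cxcl2. The motif was found in 1.89% of the 27025 genes with a promoter in the table. Of the 34 tested members of the cytokine list, 24 had a promoter there and 8 of these held a match: Ccl20, Ccl9, Csf1, Cxcl1, Cxcl2, Il1rn, Nfkb2 and Nfkbia. Nfkb2 and Nfkbia are NF-kB genes that the list holds beside the cytokines. A match is a description of letters and no evidence of binding.
Cxcl1: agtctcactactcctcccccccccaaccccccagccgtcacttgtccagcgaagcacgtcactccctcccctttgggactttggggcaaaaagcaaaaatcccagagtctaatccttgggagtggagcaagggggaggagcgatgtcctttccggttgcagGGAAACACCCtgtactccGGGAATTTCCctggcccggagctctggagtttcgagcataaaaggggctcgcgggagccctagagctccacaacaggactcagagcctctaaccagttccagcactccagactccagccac
Cxcl2: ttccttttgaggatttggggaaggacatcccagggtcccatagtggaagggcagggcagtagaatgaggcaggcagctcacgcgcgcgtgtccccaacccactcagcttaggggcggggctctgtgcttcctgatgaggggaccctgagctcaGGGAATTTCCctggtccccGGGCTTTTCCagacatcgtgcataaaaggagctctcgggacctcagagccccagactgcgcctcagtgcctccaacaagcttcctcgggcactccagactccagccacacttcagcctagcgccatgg

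Most complement genes stayed high as well. Of 20 tested genes, 13 were higher, 2 lower and 5 not called in PEC (21.3% of all genes were higher and 19.8% lower). The median was 2.10, or 1.25 without PEC replicate 3, beside 16 higher, 1 lower and a median of 2.61 in HN. C3 (ENSMUSG00000024164, chr17:57203970-57228136, GRCm38), on which all arms of the cascade meet, had 2.38, 2.47 and 1.23 FPKM in Control and 198, 195 and 222 FPKM in PEC libraries (log2 difference 6.42, SE 0.27, adjusted p = 2.34e-06). The PEC levels lay beside those of HN, at 210.2 to 243 FPKM. Cfb, the factor B of the alternative arm, was not called, at a log2 difference of 0.33, but was called higher with library totals alone (0.62). The lower members were the membrane inhibitors Cd59a (-0.87) and Cd55 (-0.81, or -0.53 and not called without Control replicate 5). Neither was called with library totals alone (-0.57 and -0.51) or by limma on FPKM with a pseudocount of 1 (-0.54 and -0.36).

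The results for interferon-stimulated genes and antigen presentation depended on single libraries. Of 27 genes, 17 were higher and 0 lower in PEC (21.3% and 19.8% of all genes), with a median of 2.06. In HN, 20 were higher and the median was 2.43. Without PEC replicate 3, 11 were higher and 1 lower in PEC and the median was 0.81. The count was 22 without PEC replicate 1 or PEC replicate 2, 10 without Control replicate 2 or Control replicate 5, and 13 without Control replicate 4. Irf7, the regulator of type I interferon, had 1.34, 1.95 and 1.18 FPKM in Control and 2.11, 2.79 and 69.4 FPKM in PEC libraries, so that its rise was large in PEC replicate 3 alone. Its log2 difference was 3.80 (SE 1.31, adjusted p = 0.0346), 0.48 without PEC replicate 3, and it was not called without Control replicate 2 (3.72), 4 (4.02) or 5 (3.68). The class II chaperone Cd74 had 57.5, 67.4 and 59.7 FPKM in Control and 354, 488 and 755 FPKM in PEC libraries (log2 difference 2.86, SE 0.25, adjusted p = 3.66e-05), and it kept its call with each library left out. B2m, the light chain of class I molecules, had 261, 289.8 and 257 FPKM in Control and 469, 545 and 2258 FPKM in PEC libraries (log2 difference 1.77, SE 0.55, adjusted p = 0.0222). Most of this difference came from PEC replicate 3, without which it was 0.67. B2m was not called without Control replicate 2 (1.74), 4 (1.80) or 5 (1.76), nor with length dependence removed (1.17, adjusted p = 0.0913).

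The promoter of B2m is shown because B2m was above Control in all PEC libraries and most in PEC replicate 3. Its window (RefSeq, GRCm38.p6, plus strand, chr2:122147437-122147736) holds 1 match to the core of the interferon-stimulated response element, GAAA and GAAA with 2 free bases between, at position -139, in capitals and searched on both strands. The motif was found in 3.99% of the 27025 genes. Of the 27 list members, 21 had a promoter in the table and 9 of these held a match: B2m, Bst2, Gbp2, Gbp3, Ifit1, Ifit3, Isg15, Oas1a and Rsad2. Of these 9, Bst2, Ifit1, Ifit3, Isg15 and Rsad2 were not called in PEC, at log2 differences of 2.21, 1.73, 1.99, 2.98 and -0.58.
B2m: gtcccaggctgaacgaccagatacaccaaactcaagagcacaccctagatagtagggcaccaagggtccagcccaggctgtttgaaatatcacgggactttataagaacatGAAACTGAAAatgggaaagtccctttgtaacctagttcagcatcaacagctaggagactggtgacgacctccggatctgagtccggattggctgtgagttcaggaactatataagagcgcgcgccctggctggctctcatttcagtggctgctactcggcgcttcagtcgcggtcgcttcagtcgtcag

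Of 21 tested genes of JAK and STAT signaling, 6 were higher and 2 lower in PEC (21.3% and 19.8% of all genes), with a median of 0.40, beside 11 higher, 1 lower and a median of 1.05 in HN, and 11 were higher with library totals alone. Without PEC replicate 3 the median was 0.22. Lif, a cytokine of the interleukin-6 family, had 0.26, 0.12 and 0.09 FPKM in Control and 3.84, 3.78 and 3.63 FPKM in PEC libraries (log2 difference 4.31, SE 0.34, adjusted p = 2.27e-05), and it was tested only through its PEC levels. Socs3, the feedback inhibitor that STAT3 induces, was higher by 3.17. Stat3 itself had 9.78, 9.72 and 5.24 FPKM in Control and 12.9, 14.4 and 14.2 FPKM in PEC libraries and was not called (log2 difference 0.50, SE 0.20, adjusted p = 0.0614), but higher without Control replicate 2 (0.63, adjusted p = 0.0444). It was also called higher by limma on FPKM (0.72 and 0.79 for pseudocounts of 1 and 0.1), with library totals alone (0.79) and with length dependence removed (0.79). Jak2, a kinase of cytokine receptors, had 8.36, 9.25 and 7.11 FPKM in Control, 3.10, 5.91 and 3.56 FPKM in PEC and 13.9 to 16.9 FPKM in HN libraries (log2 difference against Control -1.22, SE 0.23, adjusted p = 0.00174). The treated kidneys thus lay below the healthy level for Jak2, and below HN by 1.71 on the log2 scale. The LIF receptor Lifr was the other lower member (-1.02), but was not called with library totals alone (-0.72), with length dependence removed (-0.67) or with length and GC dependence removed (-0.57).

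Of the 17 genes whose mRNA or protein the study followed, 16 were tested. Of these, 9 were higher and 1 lower in PEC (21.3% and 19.8% of all genes). The median was 1.34, beside 11 higher, 1 lower and a median of 1.01 in HN. The higher ones in PEC were Col1a1, Fn1, Acta2, Tgfb1, Tnf, Il1b and Ccl2, given above, and the references Gapdh and Actb, with log2 differences of 3.30 and 1.26. Fabp4, the fatty acid carrier of adipocytes and macrophages, had 14.8, 14.3 and 11.8 FPKM in Control and 11.7, 13.3 and 111 FPKM in PEC libraries, and was not called (log2 difference 1.49, SE 0.77, adjusted p = 0.129). Without PEC replicate 3 its log2 difference was -0.36, and without PEC replicate 1 it was called higher (1.95, adjusted p = 0.0430). Its high value stood in the library with the fat genes, whose part in it was not tested. The pro-apoptotic Bax was not called, at 14.6, 15.1 and 15.3 FPKM in Control and 25.0, 19.5 and 25.1 FPKM in PEC libraries (log2 difference 0.37), nor was Bcl2 (-0.07). Bax was called higher with library totals alone (0.67) and by limma on FPKM (0.59 and 0.61 for pseudocounts of 1 and 0.1).

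Of 32 genes of apoptosis and necroptosis, 11 were higher and 5 lower in PEC (21.3% and 19.8% of all genes), with a median of 0.32, beside 14 higher, 3 lower and a median of 0.63 in HN. In PEC, 3 were lower and the median was 0.62 with library totals alone, and 2 were lower by limma on FPKM with a pseudocount of 1. Ripk3, the kinase of necroptosis, had 0.22, 0.49 and 0.18 FPKM in Control and 1.89, 1.79 and 2.39 FPKM in PEC libraries (log2 difference 2.48, SE 0.34, adjusted p = 3.58e-04), and like Casp1 it was tested only through its PEC levels. Its partner Mlkl was higher by 1.48, and the inflammatory caspases Casp1 and Casp4 by 1.73 and 1.67. The lower members were Apaf1 (-1.41), the scaffold of the apoptosome, cytochrome c Cycs (-0.75), Bid (-0.78) and the p53 targets Trp53inp1 (-1.24) and Ccng1 (-1.07). Apaf1 was below the FPKM limit in every PEC library and was tested only through its Control levels. Bid and Cycs were not called with library totals alone (-0.48 and -0.44) or by limma with a pseudocount of 1 (-0.50 and -0.48), nor was Apaf1 by the latter (-0.38, against -0.97 and called with a pseudocount of 0.1). Trp53inp1 had 6.56, 6.45 and 8.85 FPKM in Control, 3.65, 3.86 and 3.57 FPKM in PEC and 10.8 to 11.8 FPKM in HN libraries, so that PEC lay below both.

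Of 24 tested genes of cell division, 19 were higher and 0 lower in PEC (21.3% and 19.8% of all genes), with a median of 1.92. In HN, 20 were higher and the median was 2.15. These counts follow in part from the FPKM limit, since Top2a, Cdk1, Ccnb1, Ccne1, Aurka, Aurkb, Plk1 and Birc5 were below it in every Control library and could be tested only where PEC was high. Aurkb, a mitotic kinase, had 0.03, 0.02 and 0.14 FPKM in Control and 1.41, 1.73 and 1.27 FPKM in PEC libraries (log2 difference 4.18, SE 0.69, adjusted p = 9.10e-04). Mki67, the proliferation marker, was higher by 2.27 and Ccnb2, a cyclin of mitosis, by 3.07. These levels were low in every library and well apart between the groups. Pcna and Ccnd1 were the most abundant members and were not called: Pcna had 17.3, 18.9 and 12.2 FPKM in Control and 17.4, 17.5 and 18.7 FPKM in PEC libraries (log2 difference -0.10, adjusted p = 0.605), and Ccnd1 differed by 0.04. The promoter of Ccnb2 is shown because it holds more than 1 match to a motif of cell division genes (RefSeq, GRCm38.p6, minus strand, chr9:70421505-70421804). Capitals mark its 3 matches to CCAAT on either strand, the letters bound by NF-Y, from position -87 to -21. At least 1 match was found in 41.1% and at least 3 in 3.88% of the 27025 genes, and in 15 and 7 of the 19 list members with a promoter.
Ccnb2: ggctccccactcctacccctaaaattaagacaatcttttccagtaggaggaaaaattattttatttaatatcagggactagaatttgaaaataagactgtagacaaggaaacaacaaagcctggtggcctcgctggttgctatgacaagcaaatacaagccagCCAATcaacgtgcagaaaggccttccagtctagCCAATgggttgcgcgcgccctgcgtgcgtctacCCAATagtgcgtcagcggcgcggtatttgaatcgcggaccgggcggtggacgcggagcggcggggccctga

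Of 27 tested immediate early and stress genes, 11 were higher and 6 lower in PEC (21.3% and 19.8% of all genes), with a median of 0.46, beside 10 higher, 2 lower and a median of 0.64 in HN, and 7 were higher without PEC replicate 3 or after removal of the dependence on gene length. Atf3, a stress factor, had 0.39, 0.90 and 0.75 FPKM in Control and 6.40, 3.32 and 6.70 FPKM in PEC libraries (log2 difference 2.75, SE 0.40, adjusted p = 4.83e-04). Hsp90aa1, the inducible chaperone of many kinases, had 237, 198 and 247 FPKM in Control, 77.5, 47.0 and 35.4 FPKM in PEC and 125 to 181 FPKM in HN libraries (log2 difference -2.35, SE 0.29, adjusted p = 1.94e-04). Hspa5, the chaperone of the endoplasmic reticulum, fell by 0.98. Both chaperones were also lower in PEC than in HN, with log2 differences of -1.28 for Hsp90aa1 and -0.73 for Hspa5. The glucocorticoid-induced Fkbp5 fell by 1.82.

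The calls of a list that held antioxidant genes together with NADPH oxidase and iron genes moved with the scaling. Its counts are therefore not counts of antioxidant genes alone. Of 23 tested genes, 11 were lower and 2 higher in PEC (19.8% and 21.3% of all genes), with a median of -0.61. In HN, 14 were lower and 2 higher, with a median of -0.74. In PEC only 1 was lower with library totals alone or by limma on FPKM with a pseudocount of 1. Nox4, the NADPH oxidase of the tubule, had 33.3, 38.4 and 34.7 FPKM in Control and 13.6, 14.1 and 12.1 FPKM in PEC libraries (log2 difference -1.67, SE 0.10, adjusted p = 6.74e-06). Its PEC levels were below the 19.9 to 22.9 FPKM of HN. Cybb, the oxidase subunit of phagocytes, was higher by 1.67. Fth1, the heavy chain of the iron store ferritin, had 617, 543 and 595 FPKM in Control, 1455, 1299 and 1147 FPKM in PEC and 431 to 518 FPKM in HN libraries (log2 difference 0.90, SE 0.13, adjusted p = 5.28e-04). The light chain Ftl1 had 1688, 1475 and 1493 FPKM in Control and 1080.3, 1009 and 1240.4 FPKM in PEC libraries (log2 difference -0.74, or -0.44 and not called with library totals alone, -0.49 by limma). Of the chains of ferritin, Fth1 was above and Ftl1 below Control in FPKM in all 3 PEC libraries.

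Of 27 genes of cholesterol and fatty acid synthesis and uptake, 7 were lower and 4 higher in PEC (19.8% and 21.3% of all genes), with a median of -0.06 that library totals alone turned to 0.24, limma on FPKM to 0.19 and removal of length dependence to 0.10 (0.09 in HN). Higher members were 8 with library totals alone and 6 with length dependence removed. With a library left out the median went from -0.23, without PEC replicate 3, to 0.04, without Control replicate 2. Idi1, an isomerase of the sterol path, had 27.5, 24.7 and 47.9 FPKM in Control and 6.70, 7.63 and 2.50 FPKM in PEC libraries (log2 difference -2.84, SE 0.50, adjusted p = 0.00138). The fatty acid receptor Cd36 fell by 1.77 on the log2 scale. The higher members were the desaturases Scd2 (1.71) and Scd1 (1.44), the apolipoprotein Apoe (1.16) and Fdft1 (0.80, or 0.56 and not called without PEC replicate 1). Scd1 had 16.4, 15.0 and 14.4 FPKM in Control and 50.4, 40.8 and 56.3 FPKM in PEC libraries, which did not overlap. Scd2 was less even, with 9.29, 6.62 and 5.88 FPKM in Control and 10.03, 33.3 and 41.3 FPKM in PEC libraries. PEC replicate 1 was thus near the highest Control level for Scd2.

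Of 16 clock genes, 6 were lower and 2 higher in PEC (19.8% and 21.3% of all genes), with a median of -0.41 (-0.52 in HN) that limma on FPKM brought to 0.001. Without Control replicate 4, 3 were lower and the median was -0.07, and without PEC replicate 2 or 3, 4 were lower. Without Control replicate 2, 8 were lower. Without Control replicate 2 or PEC replicate 1 or 2, 1 was higher. Clock, the activator of the rhythm, had 4.70, 4.72 and 5.03 FPKM in Control and 2.22, 1.16 and 1.72 FPKM in PEC libraries (log2 difference -1.76, SE 0.26, adjusted p = 5.04e-04), and 3.46 to 5.74 FPKM in HN. Its partner Arntl fell by 1.39. Among the higher members was the repressor Bhlhe40 (0.66). Bhlhe40 was not called without Control replicate 2 (0.62), Control replicate 5 (0.49), PEC replicate 1 (0.63) or PEC replicate 2 (0.51). The time of day at which the kidneys were taken is not in the labels.

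Of 32 genes of cytosolic ribosomal proteins, 16 were higher and 0 lower in PEC (21.3% and 19.8% of all genes). The median was 0.58 (0.37 in HN). But 5 were higher and 2 lower once the dependence on gene length had been removed, and 24 were higher with library totals alone. Rps24, of the small subunit, had 26.2, 25.7 and 22.3 FPKM in Control and 65.5, 57.3 and 67.7 FPKM in PEC libraries (log2 difference 1.11, SE 0.08, adjusted p = 1.80e-05). Rplp1, of the large subunit, was not called (log2 difference 0.03).

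Among called genes at a mean of 5 FPKM or more, with no overlap of the groups and without predicted models, immunoglobulin segments and loci of ribosomal, small nuclear and small nucleolar RNA, the largest rises were those of Ugt1a9, Scgb1a1, Il1f6, Mmp7, Cxcl17, Havcr1, Ugt1a1, C3, Lcn2, Serpina10, Timp1 and Ubd. Of these, Ugt1a9, Scgb1a1, Il1f6, Mmp7, Cxcl17, Ugt1a1 and Serpina10 were below the FPKM limit in every Control library and were tested only through their PEC levels. Scgb1a1, the secretoglobin of airway club cells, had 0 counts in every Control library and 51.6, 45.6 and 17.4 FPKM in PEC libraries, at least 519-fold higher by mean with a floor of 3 counts per library. In HN libraries it had 0.00, 0.00 and 0.10 FPKM, so that it was seen in treated kidneys nearly alone. Il1f6, the interleukin-36 alpha of injured epithelium, had 12.7, 11.6 and 13.5 FPKM in PEC libraries and 4 counts in the Control libraries together, and HN libraries had 12.1 to 17.6 FPKM. Cxcl17, a mucosal chemokine, had 11.9, 10.3 and 8.54 FPKM in PEC and at most 0.06 FPKM in Control libraries. Ugt1a1, which joins glucuronic acid to bilirubin and to flavonoids, had 0.24, 0.15 and 0.13 FPKM in Control, 38.4, 13.3 and 30.2 FPKM in PEC and 0.26 to 1.39 FPKM in HN libraries (log2 difference 7.03, SE 0.80, adjusted p = 1.22e-04). Its exons overlap those of 8 other Ugt1a genes, so that the gene of origin of these reads is uncertain. Ugt1a9 of the same locus had 30.9, 0.02 and 0.10 FPKM in PEC and 0 counts in Control libraries, at least 654-fold higher by a mean that rests on PEC replicate 1, and it was not called without that library (fitted log2 difference 6.51) or without any of the Control libraries. Serpina10, an inhibitor of coagulation, had 0.16, 0.35 and 0.35 FPKM in Control and 22.7, 30.6 and 26.8 FPKM in PEC libraries (log2 difference 6.26). Ubd, a ubiquitin-like protein that cytokines induce, had 0.21, 0.68 and 0.45 FPKM in Control and 13.6, 14.2 and 33.8 FPKM in PEC libraries (log2 difference 5.25).

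The largest falls by the same rule were those of Mir22, Slco1a1, Mgll, Apob, A1cf, Akr1c14, Pdpr, Slc10a5, Mpv17l, Far1, Ppara and Slc22a7. The locus of Mir22 (ENSMUSG00000065529, chr11:75463716-75463810, GRCm38), at 18.9, 19.3 and 13.4 FPKM in Control and 0.07, 0.11 and 0.16 FPKM in PEC libraries, was called lower (adjusted p = 1.15e-05), and HN libraries had 8.86 to 17.4 FPKM. The locus passed the FPKM limit through the Control libraries alone, so that its being called lower follows in part from the limit. It had 1 count in each PEC library, against 149, 151 and 109 counts in Control libraries, so that the fitted log2 difference of -7.02 and its rank as the largest fall rest on 3 reads. These are fragments of a long poly(A) transcript counted on the hairpin and no measure of the mature miRNA. The locus lies in exons of Mir22hg and Tlcd2, and its host Mir22hg was not called, at 13.7, 16.6 and 9.53 FPKM in Control and 12.3, 15.5 and 16.1 FPKM in PEC libraries (log2 difference -0.11, adjusted p = 0.678). The mature arms of the locus (RefSeq, GRCm38.p6, plus strand of chromosome 11, chr11:75463772-75463793 for the 3p and chr11:75463734-75463755 for the 5p arm) are shown because it gave the largest fitted fall, with the seed, bases 2 to 8, in capitals, and their seeds differ.
mmu-miR-22-3p: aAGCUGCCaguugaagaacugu
mmu-miR-22-5p: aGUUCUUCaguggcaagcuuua

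Apob (ENSMUSG00000020609, chr12:7977648-8016835, GRCm38), the protein of lipoproteins that kidney tubules also secrete, had 13.0, 14.8 and 10.97 FPKM in Control and 1.07, 1.12 and 1.01 FPKM in PEC libraries (log2 difference -3.85, SE 0.11, adjusted p = 5.88e-07). It had 7.72 to 8.54 FPKM in HN, and the treated kidneys lay below both groups. A1cf, which guides the editing of Apob mRNA, had 24.2, 18.1 and 22.4 FPKM in Control and 2.11, 3.14 and 1.20 FPKM in PEC libraries (log2 difference -3.58, SE 0.32, adjusted p = 3.74e-05). Far1, which makes fatty alcohols for ether lipids in the peroxisome, had 11.7, 13.7 and 17.0 FPKM in Control and 1.43, 2.33 and 1.84 FPKM in PEC libraries (log2 difference -3.17). Pdpr, the regulator of the pyruvate dehydrogenase phosphatase, had 13.1, 13.2 and 13.0 FPKM in Control and 1.59, 2.03 and 1.24 FPKM in PEC libraries (log2 difference -3.27). For A1cf, Far1 and Pdpr the HN levels, at 6.70 to 7.54, 9.56 to 11.3 and 8.91 to 10.3 FPKM, lay between both groups. Mgll, which splits monoglycerides, fell by 3.88, and Akr1c14, a steroid reductase, by 3.32. Mpv17l, a peroxisomal protein, had 3.32, 6.71 and 37.0 FPKM in PEC libraries against 149, 155 and 64.6 FPKM in Control. Its log2 difference was -3.21, or -4.84 without PEC replicate 3, and DESeq2, which gave it no adjusted p, did not call it.

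Some genes that were called in HN kidneys were not called in PEC kidneys. Among all genes that were not called in PEC, whether or not they were called in HN, 3303 had a narrow interval. Their 95% interval of the PEC to Control difference lay within 1.5-fold in both directions. Klk1, the kallikrein of the connecting tubule, had 1452, 1233 and 1156 FPKM in Control, 1818, 1395 and 1579.5 FPKM in PEC and 544 to 617 FPKM in HN libraries (log2 difference PEC to Control 0.07, SE 0.13, adjusted p = 0.672). Fabp3, the fatty acid carrier of heart and distal tubule, had 59.6, 78.2 and 75.7 FPKM in Control, 81.5, 89.8 and 113 FPKM in PEC and 31.2 to 43.5 FPKM in HN libraries (log2 difference 0.16, SE 0.17, adjusted p = 0.447). With length and GC dependence removed both were called lower in PEC, Klk1 with -0.60 and Fabp3 with -0.64. In FPKM, Fabp3, Bcl2 and Etfb were above Control in all PEC libraries. Bcl2 had 1.44, 1.42 and 1.57 FPKM in Control, 1.60, 1.72 and 1.73 FPKM in PEC and 3.25 to 3.39 FPKM in HN libraries. Klk1, Fabp3 and Bcl2, like Etfb and Ccn2, were called in HN and not in PEC, and each of them differed between PEC and HN by the same test, with log2 differences of 1.64 for Klk1, 1.58 for Fabp3, -0.77 for Bcl2, 1.77 for Etfb and -2.10 for Ccn2. For Ccn2 the SE of 0.35 leaves a wide interval against Control. Smad3 and Stat3 were also called in HN and not in PEC, but were not called between PEC and HN, at -0.15 and -0.55.

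Marker genes of other cells were summed in each library. Counts of called markers stand beside the 21.3% higher and 19.8% lower of all tested genes in PEC. The kidney markers summed to 27061, 26551 and 39847 FPKM in Control and 14505, 19985 and 13528 FPKM in PEC libraries, most of it Kap, and none was at 0. Of the 11, 6 were lower and Pax8 was higher. Macrophage markers had sums of 50.2, 56.2 and 48.7 FPKM in Control, 419, 439.9 and 562 FPKM in PEC and 1040.3 to 1180.4 FPKM in HN libraries, Lyz2, the lysozyme of these cells, being the most abundant. All 13 tested genes were higher, of which Trem2, Ms4a7 and Itgam were near 0 in Control and passed the FPKM limit through the PEC libraries alone. The PEC sums lay above Control and below HN without overlap, and the exact permutation p for 3 against 3 libraries was 0.1, the smallest it can reach. T and NK cell markers, led by Trac, had sums of 4.11, 5.59 and 3.71 FPKM in Control and 12.5, 17.3 and 19.7 FPKM in PEC libraries. Of these, 8 of 9 tested genes were higher (5 without Control replicate 4), a share set in part by the FPKM limit, which genes near 0 in Control, such as Cd3d, Cd3g and Cd4, pass only through the PEC libraries. Fibroblast markers were higher for 8 of 10 genes, with sums of 80.0, 78.7 and 71.2 FPKM in Control and 199, 221 and 195 FPKM in PEC libraries, Tagln being the most abundant. Dendritic cell markers were higher for 4 of 5 genes, Clec9a, Cd209a and, tested only through their PEC levels, Ccr7 and Itgax, with sums of 2.94, 3.01 and 2.63 FPKM in Control and 14.9, 16.4 and 12.5 FPKM in PEC libraries. The exact p was 0.1 for each of these sums. The part of these cells in the matrix, cytokine, complement and antigen presentation results was not tested.

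Sums of B and plasma cell, neutrophil, urothelial and adipocyte markers overlapped between the groups, while those of adrenal, pancreas, skeletal muscle, liver and lung markers did not, with an exact p of 0.1 each. Of all tested genes, 21.3% were higher and 19.8% lower in PEC. A count near these shares, such as that of B and plasma cell genes, is no result about the markers. B and plasma cell sums were 51.1, 89.4 and 89.1 FPKM in Control, 94.3, 137 and 83.0 FPKM in PEC and 404 to 538 FPKM in HN libraries, led by Igkc, with 3 of 10 genes higher (Ighm, Sdc1 and Cd79b, the last tested only through its PEC levels) and Xbp1 lower in PEC, and 2 lower without Control replicate 2 or PEC replicate 2. Neutrophil sums were 7.16, 13.4 and 4.56 FPKM in Control and 9.37, 11.4 and 30.7 FPKM in PEC libraries, led by S100a9, and 1 of 3 tested genes, Csf3r, was higher. Urothelial sums were 29.9, 31.1 and 19.5 FPKM in Control and 22.3, 27.6 and 105 FPKM in PEC libraries, led by Psca, and Krt20 alone of 8 genes was higher, while 4 were lower without PEC replicate 3. The adipocyte sums of 1347, 1061 and 703.5 FPKM in Control and 289, 499.8 and 919 FPKM in PEC libraries were led by Pck1, which tubules also express and which alone was lower, and 0 of 9 genes were higher, or 1 without PEC replicate 1. Their median log2 difference of 4.36, fitted on genes near 0, was -4.71 without PEC replicate 3 and 8.90 without Control replicate 2. Adrenal markers summed to 0.55, 1.04 and 0.55 FPKM in Control and 1.15, 1.28 and 1.5 FPKM in PEC libraries, with Star as the most abundant and Cyp11b2 at 0; Star was higher (log2 difference 0.69), but not without Control replicate 2 or 5 or PEC replicate 3. Pancreas markers had Prss2, Cpa1, Cela2a, Amy2a1, Pnlip, Ins2 and Try5 at 0 in all 6 libraries, and Cela1 led a sum of 16.4, 26.4 and 24.9 FPKM in Control and 15.6, 13.5 and 13.0 FPKM in PEC libraries. Skeletal muscle markers had Myh2 and Myh4 at 0 and summed to 0.67, 0.76 and 0.69 FPKM in Control and 1.40, 1.83 and 2.18 FPKM in PEC libraries, led by Mylpf. Liver markers summed to 143, 137 and 139 FPKM in Control and 265, 223 and 216 FPKM in PEC libraries, led by Ttr, with Alb, Serpina1a and Fgb higher and Apob lower of 7 tested genes. With length dependence removed, 1 liver marker was higher and 2 were lower, and their median turned from 0.367 to -0.115. The part of RNA from these tissues in the results was not tested.

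Of 10 markers of lung and airway, 5 were tested, Scgb1a1, Sftpc, Sftpd, Ager and Foxj1. All were near 0 in Control and passed the FPKM limit through the PEC libraries alone, so that their being called higher follows from the limit and only their levels are given. The 10 markers summed to 0.28, 0.22 and 0.24 FPKM in Control, 59.5, 54.9 and 23.7 FPKM in PEC and 8.24 to 10.5 FPKM in HN libraries, with Scgb1a1 as the most abundant. The surfactant gene Sftpc had 2.20, 2.83 and 0.43 FPKM in PEC libraries and 0.00 FPKM in every Control and HN library. Foxj1, of ciliated cells, had 2.20, 2.92 and 2.46 FPKM in PEC and 5.31 to 7.08 FPKM in HN libraries, against 0.03 to 0.18 FPKM in Control. Of the members not tested, Sftpa1 had 0.44, 0.51 and 0.14, Sftpb 0.54, 0.49 and 0.09 and Scgb3a2 0.17, 0.12 and 0.03 FPKM in PEC libraries. These had at most 0.02 FPKM in Control and HN libraries. Scgb3a1 had 0.00, 0.29 and 0.00 FPKM in PEC and up to 0.15 FPKM in HN libraries. The airway secretory gene Bpifa1 was at 0.00, 0.00 and 0.04 FPKM in PEC libraries. The surfactant protein gene Sftpd had 0.90, 0.54 and 1.55 FPKM in PEC and 1.99 to 2.52 FPKM in HN libraries. Scgb1a1, Sftpc, Sftpa1, Sftpb and Scgb3a2 were thus seen in PEC libraries nearly alone, whereas Foxj1 and Sftpd were highest in HN. The part of lung RNA in these values was not tested.

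**Figure D3:**
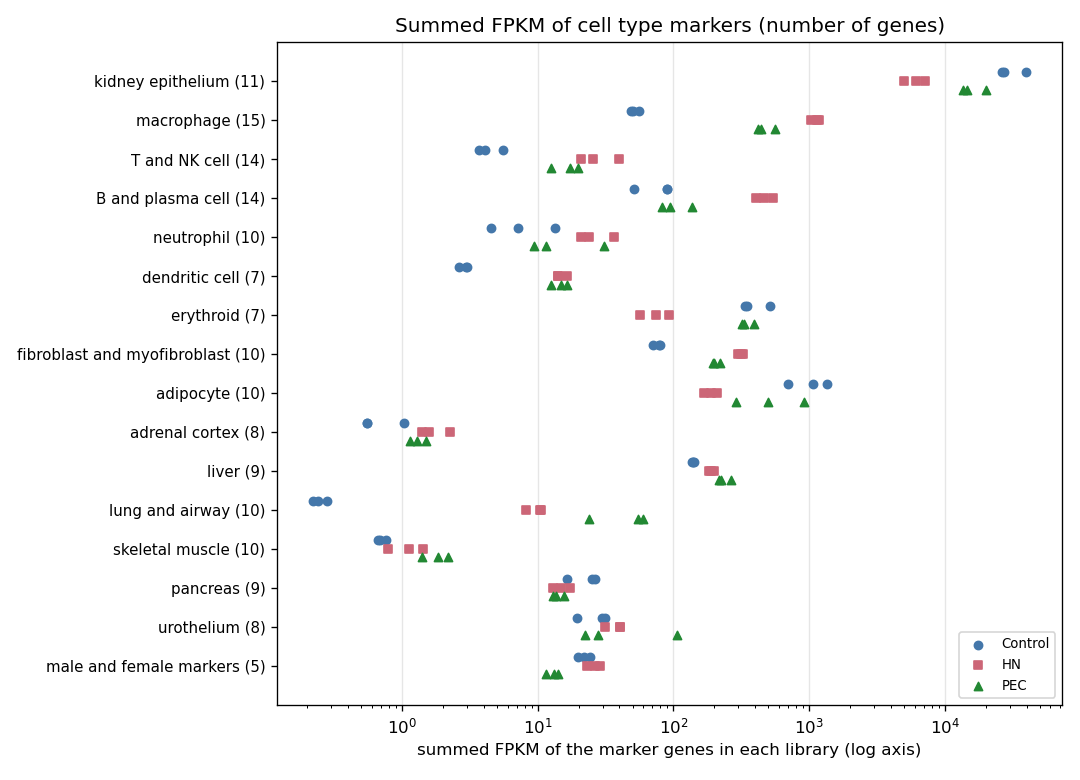
Summed FPKM of the marker genes of 16 lists in each library, on a log axis, with the number of genes in brackets. Macrophage markers lie at 48.7 to 56.2 FPKM in Control, 419 to 562 FPKM in PEC and 1040.3 to 1180.4 FPKM in HN libraries.

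The calls followed the length and the type of the genes. In 5 groups of 3016 genes by length, 31.7% of the shortest (64 to 1775 bases) were higher and 13.8% lower in PEC, against 11% higher and 31.7% lower among the longest (7545 to 46090 bases). Across the 15080 genes, Spearman's rho of the log2 difference with length was -0.25 in PEC and 0.10 in HN, and with the GC content of 15067 genes it was 0.26 and 0.08. Genes are not independent replicates, and the values are given as a description. Of 12636 protein-coding genes, 2382 were higher and 2663 lower in PEC. Of 1014 processed pseudogenes, which are copies of mRNAs and share their reads, 443 were higher and 120 lower, with a median of 0.76 in PEC and -0.06 in HN. Loci of small RNAs were mostly higher where called: 17 of 32 small nuclear RNA genes were higher and 1 lower, as were 32 and 1 of 94 small nucleolar RNA genes. Variable segments of immunoglobulins went the other way, with 0 of 18 higher and 8 lower. Their median was -1.88 in PEC and 2.51 in HN. Removal of the dependence on length called 2828 genes higher and 3338 lower, and removal of that on length and GC 2667 and 3185. How the authors' counting treated reads that match several genes is not given in the sources used here, so that values of genes with many copies, Gapdh and ribosomal proteins among them, are uncertain.

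**Figure D4:**
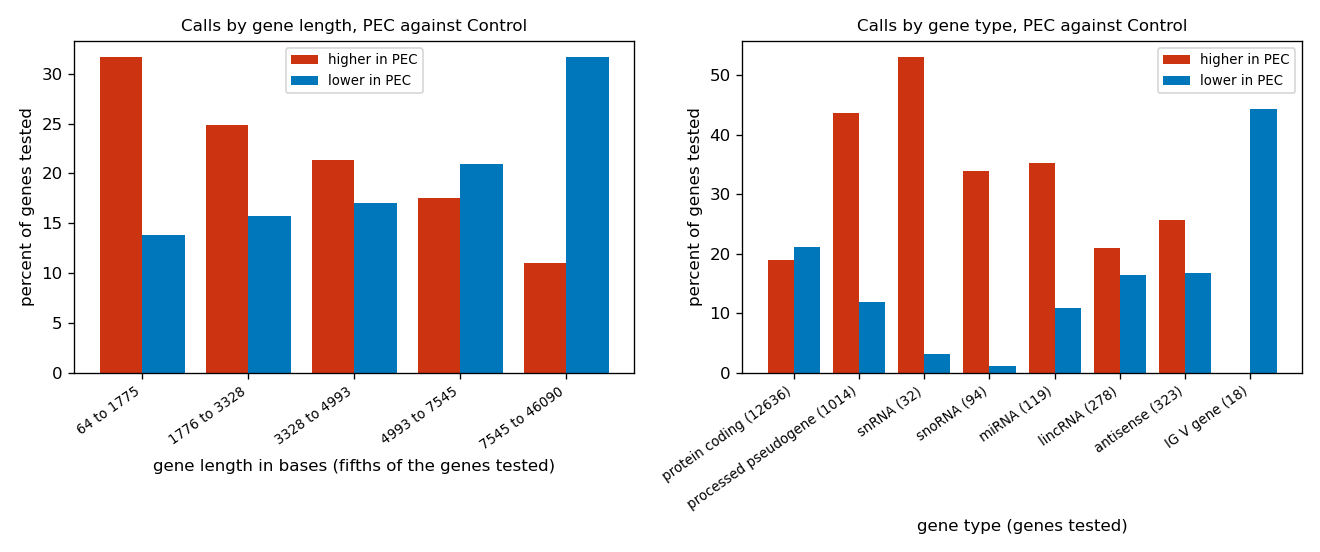
Percent of tested genes called higher and lower in PEC than in Control, in 5 groups by gene length (left) and by gene type (right). The share that was higher goes from 31.7% in the shortest to 11% in the longest genes, and 43.7% of processed pseudogenes were higher.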

How the data were processed

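Poly(A) RNA of 9 mouse kidneys was sequenced, with 3 libraries a group. The authors deposited 1 table with whole-number counts of reads per gene, without normalization. The deposited FPKM were computed by the authors from counts, gene length and library total. Counts and FPKM columns of the same name were checked to belong together over 10576 genes (largest SD for the same name 0.0019, smallest for different names 0.2717). Bowtie 0.12.2 and the builds mm8 and mm9 are named in the submitters' processing notes, while the coordinates of the table are GRCm38, identical to GENCODE M21 for 51991 of 55144 genes. The counting program, the strand counted and the treatment of multi-mapped reads are not given in the sources used here.

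edgeR 4.0.16 in R 4.3.3 (TMM factors, glmQLFit, glmQLFTest) was fitted once over the 9 libraries, with 6 residual degrees of freedom. Benjamini-Hochberg adjustment ran over the 15080 genes. SE are of log2 differences. Depth was 57714111 to 81069646 counts. The 95% intervals use the SE of the fit, which include the spread between the mice of a group. The floors of 3 counts per library rest on counts alone and do not cover that spread. Summed markers were compared by an exact permutation test, whose smallest p for 3 against 3 is 0.1. Alternatives were limma 3.58.1 on log2 FPKM with pseudocounts of 1 and 0.1, DESeq2 1.42.0, median-of-ratios factors, library totals alone, no FPKM filter or 1 FPKM, the 6 libraries alone, removal of length or length and GC dependence (splines of 5 degrees of freedom), leaving out mitochondrial, ribosomal RNA and immunoglobulin genes, unadjusted p, a fold change of 2 and each library left out. The steps were tested on simulated data. Python 3.11.15 with pandas 2.3.3 and matplotlib 3.10.9 made lists and plots.

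Named genes were the 12 largest rises and falls among called genes without overlap and with a mean of at least 5 FPKM, leaving out predicted models, immunoglobulin segments and ribosomal, small nuclear and small nucleolar RNA genes (7 among the rises, 5 among the falls), and in each list the 2 most abundant members, the largest rise and fall, members that decide a count of 5 or fewer, all genes the study measured, and markers. Other list members, Cyp4a14, AY036118, Cldn2, Mir22hg and the sequence motifs were chosen after their values were seen. The members and lists were chosen with earlier results of these data known. No comparison columns of the authors are in the table. Some genes that this rule names are not reported here.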

Additional observations from a re-analysis of the deposited data

How the results depend on the processing

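No paired analysis was possible because the replicate numbers of Control and PEC libraries share only number 2 and mark different mice. With each library left out in turn, 3002 to 3225 genes were higher and 2781 to 3065 lower. Higher genes were 4909 with library totals alone and 2103 at a fold change of 2, where a stricter limit passes fewer genes. Lower genes were 1486 and 1885 by limma on log2 FPKM with pseudocounts of 1 and 0.1, 1704 with library totals alone and 1498 at a fold change of 2. The cause of these differences was not tested. Under the other alternatives both counts were within 1.5 times those reported: DESeq2 called 3275 and 3086, median-of-ratios factors 3227 and 2983, no FPKM filter 3991 and 3753 of 25238 genes, at least 1 FPKM 2728 and 2560, the 6 libraries alone 3159 and 2815, and an unadjusted p 3367 and 3109. Protein-coding genes alone, an alternative chosen after seeing the data, gave 2565 and 2463. Of 147 named genes, 123 were called, and 85 of these had the same call under every alternative that was compared gene by gene. That comparison left out the fold change of 2, the unadjusted p and protein-coding genes alone. A called gene that changed less than 2-fold, such as Hspa5, loses its call at a fold change of 2. Removal of length and GC dependence turned Fabp3 to -0.64, Klk1 to -0.60 and Rplp1 to -0.91 (called lower), and removal of length dependence alone turned Rplp1 to -0.71, and the cause was not tested. Depth limits genes with few counts, such as Mmp7, Il1f6, Cxcl17 and Scgb1a1 in Control libraries, whose fitted differences depend on the prior count. With 3 mice a group, a gene that was not called was not shown to be unchanged. The labels give no batch, dose or time of sampling, and the PEC libraries differ from all others in ribosomal RNA, pseudogene and length measures, which cannot be told apart from treatment.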

Other observations

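Genes of the Y chromosome and of red cells, used as checks of the samples, are given here. Ddx3y, an RNA helicase of the Y chromosome, had 10.9, 8.59 and 11.01 FPKM in Control, 3.28, 3.38 and 3.39 FPKM in PEC and 9.43 to 13.7 FPKM in HN libraries, and was lower in PEC than in Control (log2 difference -1.86). Uty, a demethylase of the same chromosome, fell by 2.15. Eif2s3y and Kdm5d, of the same chromosome, were not called, at -0.41 and 0.06, and Xist, of the inactive X chromosome, had at most 0.03 FPKM in every library, so that all 9 kidneys looked male by these genes. Erythroid markers summed to 348, 336 and 519 FPKM in Control, 321, 391 and 333 FPKM in PEC and 56.7 to 92.5 FPKM in HN libraries. Of 6 tested genes, Hba-a1, Hba-a2, Alas2 and Slc4a1 were lower in PEC than in Control and Hbb-bs was higher (19.8% and 21.3% of all genes), so that globin genes went in opposite directions. Without Control replicate 2 or 4 or any of the PEC libraries 0 were higher, without Control replicate 5 or PEC replicate 1, 2 were lower, and library totals alone left 1 lower.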
